A study of Mus musculus with 45 samples.

Results

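The regions described are 195 ATACseq peaks at the loci of 10 genes of the trophectoderm, the outer epithelium of the blastocyst: Cdx2, Eomes, Gata3, Gata2, Tfap2a, Tfap2c, Elf5, Hand1, Krt8 and Krt18. A peak belonged to the set when its summit lay within 50 kb of the GENCODE 5′ end of one of these genes, a rule of position alone. They are 195 of 184964 peaks, and each is named by its nearest member gene and the distance of its summit in bp, positive in the direction of transcription. The number of peaks per gene ran from 10 at Krt8 to 27 at Tfap2c, and 16 peaks lay in the windows of both keratin genes. Of the 195, 185 passed the filter on low counts, above 10 in over 6 of 27 libraries, and were tested.

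ATACseq counts the fragments released where the Tn5 transposase can insert, so the count in a peak measures how open that stretch of chromatin is. The libraries come from mouse embryonic stem (ES) cells in which both alleles of 1 pluripotency factor, SOX2, OCT4 or NANOG, carry an FKBP tag, so that the small molecule dTAG-13 directs the fusion protein to the proteasome. Cells were left untreated (NT, which the methods describe as the DMSO solvent) or were given 500 nM dTAG-13 for 2, 6 or 24 h, and the SOX2-FKBP line also for 0.5 and 1 h. The methods give growth on gelatin in serum-free medium with 2 kinase inhibitors (2i) and LIF, which hold ES cells in the naive state. They name E14 lines there and state no separate medium for OCT4-FKBP cells. There were 2 libraries for each line and time, and 3 at each treated time of the NANOG-FKBP line. The SOX2-FKBP and NANOG-FKBP lines were made in E14 cells, whereas OCT4-FKBP is a V6.5 line from another laboratory, so between lines the factor and the cell background cannot be told apart. For SOX2 the methods also describe an independent clone, without saying which libraries came from it. Nothing in the labels says that replicates were separate cultures, so p-values measure the spread between these libraries.

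Trophectoderm and pluripotent inner cell mass separate at the blastocyst stage, and OCT4 is known to hold the trophoblast program in check: ES cells that lose OCT4 take on trophoblast features over days. Cdx2, Eomes, Gata3, Gata2, Tfap2a, Tfap2c and Elf5 encode transcription factors that set up or maintain trophoblast identity, Hand1 acts in trophoblast giant cells, and Krt8 and Krt18 encode the keratin pair of the first epithelium. Accessible chromatin at such genes in ES cells can mark either active or poised elements. The question is whether loss of OCT4 or SOX2 opened these loci by 24 h, with NANOG loss beside it.

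Total counts per library ran from 1817191 to 17575631. The share on the mitochondrial genome was 1.4% to 18%, and the shallowest libraries with the highest mitochondrial share were those of replicate 2 of treated NANOG-FKBP cells. Counts were scaled by TMM to the mean effective library size, and these normalized counts are the levels given below. Changes were assessed over 166430 peaks by the quasi-likelihood test of edgeR, adjusted after Benjamini and Hochberg, and a peak with adjusted p below 0.05 is called gained where it was higher than in NT cells and lost where it was lower. The spread of replicates exceeded that of counting alone, with a chi-square per degree of freedom of 1.21 to 7.42 between replicates of a group. The OCT4-FKBP libraries at 24 h were the shallowest of that line. Fold changes are given as log2 with an approximate standard error (SE). Checks peak by peak are given for calls at 24 h against NT. Where such a call did not hold without 1 library or under another setting, the adjusted p under each of these follows in parentheses. The range of the adjusted p over all settings tried comes next. These settings include offsets for GC content, loess offsets for abundance, DESeq2, total counts in place of TMM and a fit of 1 line alone. In bulk ATACseq, opening in fewer cells and weaker opening in every cell cannot be told apart.

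The 7 sequences below are the 200 bases around the summit of gained and lost peaks with small adjusted p at 24 h outside untranslated regions, on the plus strand of GRCm38 (mm10), and they are the sites on which the results below turn. Capitals mark matches, on either strand, to fixed motif letters: ATGCNAAT for the POU octamer of OCT4, ACAANG for SOX factors, the SOX-POU composite of both,, NGATAA for GATA factors, GCCNNNGGC for TFAP2 factors, GGAATG for TEAD factors, TTTATG for CDX factors and AGGTGTG for T-box factors. The first 3 peaks were gained and the other 4 lost.
Krt18 -2427, chr15:102025653-102025852: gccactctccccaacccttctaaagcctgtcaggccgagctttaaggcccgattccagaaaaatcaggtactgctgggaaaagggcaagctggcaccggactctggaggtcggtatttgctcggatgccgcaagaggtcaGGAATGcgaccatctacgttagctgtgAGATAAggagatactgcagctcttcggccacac
Krt8 -9346, chr15:102013728-102013927: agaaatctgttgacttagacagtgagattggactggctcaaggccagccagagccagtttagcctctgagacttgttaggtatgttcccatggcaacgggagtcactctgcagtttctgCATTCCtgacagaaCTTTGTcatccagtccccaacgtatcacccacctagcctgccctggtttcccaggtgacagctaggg
Gata3 +28699, chr2:9861235-9861434: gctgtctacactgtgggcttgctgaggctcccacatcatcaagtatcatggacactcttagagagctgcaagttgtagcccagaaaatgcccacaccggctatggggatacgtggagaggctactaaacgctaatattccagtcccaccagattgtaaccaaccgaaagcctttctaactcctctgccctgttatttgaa
Tfap2c +27787, chr2:172577280-172577479: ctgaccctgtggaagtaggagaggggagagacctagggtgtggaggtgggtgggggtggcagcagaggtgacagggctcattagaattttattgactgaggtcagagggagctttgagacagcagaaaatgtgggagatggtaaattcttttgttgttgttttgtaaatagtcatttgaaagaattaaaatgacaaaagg
Eomes -6738, chr9:118471374-118471573: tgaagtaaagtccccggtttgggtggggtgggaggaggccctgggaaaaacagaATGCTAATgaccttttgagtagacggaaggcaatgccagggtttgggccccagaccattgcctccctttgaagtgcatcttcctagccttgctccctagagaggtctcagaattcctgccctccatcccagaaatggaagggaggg
Cdx2 +2354, chr5:147304816-147305015: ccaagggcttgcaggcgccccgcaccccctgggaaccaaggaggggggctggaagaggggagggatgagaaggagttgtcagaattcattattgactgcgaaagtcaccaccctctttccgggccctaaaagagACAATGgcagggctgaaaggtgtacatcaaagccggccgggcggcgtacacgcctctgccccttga
Tfap2a +21087, chr13:40717189-40717388: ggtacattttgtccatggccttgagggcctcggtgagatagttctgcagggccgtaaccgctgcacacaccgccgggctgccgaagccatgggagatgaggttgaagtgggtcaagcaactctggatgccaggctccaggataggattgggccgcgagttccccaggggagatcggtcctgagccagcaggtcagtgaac

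Of the 3 gained sites, the one at Krt18 held a TEAD and a GATA match, the one at Krt8 a TEAD and a SOX match, and the one at Gata3 none. Of the 4 lost sites, Eomes -6738 held 1 POU octamer and Cdx2 +2354 1 SOX match, whereas Tfap2c +27787 and Tfap2a +21087 held no match in these 200 bases. A match is a description of the letters and not of binding. Tfap2a +21087 lies in an exon of Tfap2a, Cdx2 +2354 in an intron of Cdx2 and Gata3 +28699 in an intron of Gata3, and the other 4 are intergenic.

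At 24 h the loci had both gained and lost peaks in the SOX2-FKBP and OCT4-FKBP lines. At Krt8 and Krt18 the called peaks were gained. Most called peaks at the transcription factor genes were lost, as were most called peaks of the whole set. In SOX2-FKBP cells 14 of 185 peaks were gained (7.57%), against 4.87% of all peaks, and 21 were lost (11.4%), against 10.9%. In OCT4-FKBP cells 20 were gained (10.8%), against 10.8% of all peaks, and 26 were lost (14.1%), against 12.7%. The share gained after OCT4 loss was that of the background. The median log2 fold change of the members was 0.02 after SOX2 loss and 0.05 after OCT4 loss, beside 0.06 and -0.01 over all peaks. These medians lie near 0 and changed sign with the scaling: with total counts they were -0.02 and -0.08, and with GC offsets -0.08 and -0.06. In NANOG-FKBP cells no member was gained, against 0.288% of all peaks, and 4 were lost (2.16%), against 2.25%, beside 8 higher at an unadjusted p under 0.05 and 0 gained by DESeq2. The 4 losses fell to 0 without 24 h replicate 3, 1 without 24 h replicate 1 or NT replicate 2 and 2 without NT replicate 1.

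The keratin locus held 22 of the tested peaks. Of these, 7 were gained in SOX2-FKBP and 10 in OCT4-FKBP cells at 24 h (31.8% and 45.5%), and edgeR called none lost in any line at 2, 6 or 24 h, with at most 1 lower at an unadjusted p under 0.05 (SOX2-FKBP at 6 h) and none lost by DESeq2. In NANOG-FKBP cells none of the 22 was called at 24 h, none had an unadjusted p under 0.05 and DESeq2 called none. The other 163 tested peaks lay at the 8 transcription factor genes. After SOX2 loss 7 were gained and 21 lost (4.29% and 12.9%, all peaks 4.87% and 10.9%). After OCT4 loss 10 were gained and 26 lost (6.13% and 16%, all peaks 10.8% and 12.7%), and after NANOG loss 4 were lost. The median log2 fold change was 0.56 at the keratin locus and -0.02 at the regulators in SOX2-FKBP cells, and 0.77 and -0.03 in OCT4-FKBP cells. With at least 10 counts in every library the keratin medians were 0.32 and 0.43. The split by gene was made after these values were seen.

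**Figure D1:**
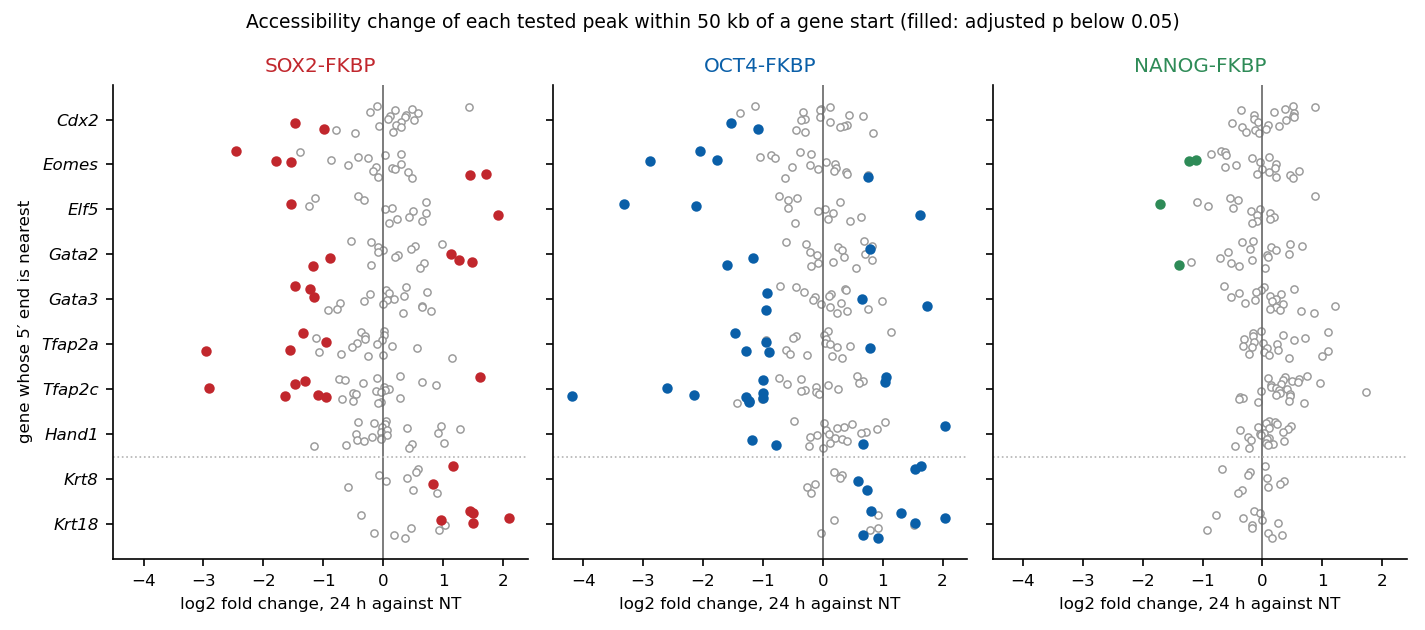
Log2 fold change of each tested peak at 24 h against NT (x axis) by the member gene with the nearest 5′ end (y axis), with filled points for adjusted p below 0.05. In the SOX2-FKBP and OCT4-FKBP panels the called points of Krt8 and Krt18, under the dotted line, all lie right of 0, and the lowest point is that of Tfap2c at -4.19 in OCT4-FKBP cells.

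Per gene, Tfap2c lost the most peaks, 6 of 26 in SOX2-FKBP and 9 of 26 in OCT4-FKBP cells, with 1 and 2 gained. Tfap2a lost 4 of 21 in each line and gained 1 after OCT4 loss. Eomes lost 3 of 20 in each line and gained 2 after SOX2 and 1 after OCT4 loss, and Cdx2 lost 2 of 20 and gained none in both. Gata2 had 3 gained and 2 lost of 18 in SOX2-FKBP and 1 gained and 2 lost in OCT4-FKBP cells, Gata3 0 and 3 of 20 against 2 and 2, and Elf5 1 and 1 of 15 against 1 and 2. Hand1 had no call among 23 peaks after SOX2 loss, and 2 gained and 2 lost after OCT4 loss. Over all peaks 4.87% were gained and 10.9% lost after SOX2 loss, and 10.8% and 12.7% after OCT4 loss. With few peaks per gene, the counts per gene were not tested against these shares.

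Both lines gained 7 of the same members and lost 13 of the same members at 24 h. The shared gains were 50% of the SOX2-FKBP gains and 35% of the OCT4-FKBP gains, and over all peaks these shares were 38.0% and 17.1%. The shared losses were 61.9% and 50%, beside 61.5% and 52.8% over all peaks. At the keratin locus 5 gains were shared, and at the regulators 2 gains (Elf5 +25812 and Tfap2c -47212) and 13 losses. No member was gained in one line and lost in the other.

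With the replicate block, a fit that pairs libraries of the same number, the counts at 24 h rose to 22 gained and 30 lost in SOX2-FKBP cells (all peaks 10.4% and 14.2%) and to 30 gained and 32 lost in OCT4-FKBP cells (15.1% and 15.9%). The keratin locus then had 10 and 11 gained and still none lost. Leaving out 24 h replicate 1 of SOX2-FKBP cells took the counts to 7 gained and 11 lost, NT replicate 1 took the gains to 9, and NT replicate 2 and 24 h replicate 2 took the losses to 11 and 13. In OCT4-FKBP cells the gains fell to 10 without 24 h replicate 1 or NT replicate 2, and the losses to 13 without 24 h replicate 1.

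Few of the peaks over the gene starts passed the test. For 9 of the 10 genes the nearest peak lay within 1 kb of the 5′ end and is called the promoter peak, while the nearest peak of Krt8 lay 1.12 kb upstream. The promoter peaks of Cdx2, Eomes, Gata3, Tfap2a, Tfap2c, Elf5 and Hand1 were not called at 24 h in any line. Only Gata2 after OCT4 loss and Krt18 after SOX2 loss were called, both gained, in the fit without a block. Of all tested peaks within 1 kb of a gene start, 36.5% were gained after OCT4 loss and 7.25% after SOX2 loss.

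These promoters were already open to different degrees in NT cells. Per kb of peak, the NT level of the Tfap2c promoter peak was 112 in SOX2-FKBP, 141 in OCT4-FKBP and 94.2 in NANOG-FKBP cells, which was above 58.7%, 63.6% and 42.3% of 13861 promoter peaks. Elf5 was the least open, at 8.56, 18.3 and 26.7 per kb, above 0.382%, 2.85% and 5.89% of promoter peaks, and Tfap2a followed in the SOX2-FKBP line at 19.1 per kb (4.31%). Cdx2 stood at 49.6, 126 and 85.3 per kb (23.5%, 56.7% and 37.7%) and Eomes at 64.5, 137 and 105 per kb (32.1%, 61.9% and 48.1%). Gata2 was the highest of the 9 in OCT4-FKBP and NANOG-FKBP cells, at 157 and 115 per kb.

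Cdx2, the caudal homeobox gene of the trophectoderm, had a promoter peak in its untranslated region (Cdx2 +239) with normalized counts of 252 and 183 in NT cells and 294 and 176 at 24 h in OCT4-FKBP cells. The groups overlapped, and the log2 fold change was 0.12 (SE 0.24, adjusted p = 0.786). In SOX2-FKBP cells the levels were normalized counts of 82.1 and 89.6 in NT cells and 96.1 and 115 at 24 h, a log2 fold change of 0.31 (SE 0.27, adjusted p = 0.498). Both 24 h libraries lay just above both NT libraries there. Eomes, the T-box gene of trophoblast stem cells, had normalized counts of 371 and 292 in NT cells and 473 and 286 at 24 h at Eomes +652 in OCT4-FKBP cells, a log2 fold change of 0.20 (SE 0.24, adjusted p = 0.61).

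At the Gata2 promoter peak, Gata2 +479 (chr6:88193752-88194636, intron), OCT4-FKBP cells had normalized counts of 145 and 133 in NT cells, 207 and 143 at 2 h, 211 and 134 at 6 h and 258 and 219 at 24 h. Both 24 h libraries lay above both NT libraries, with a log2 fold change of 0.78 (SE 0.22, adjusted p = 0.00832). The call was lost without 24 h replicate 1 (0.101) or NT replicate 2 (0.0999) and with GC offsets (0.646) or the replicate block with GC offsets (0.572), with a range of 0.000293 to 0.646. In SOX2-FKBP cells, with normalized counts of 67.9 and 59.7 in NT cells and 82.5 and 95 at 24 h, the change was 0.47 (SE 0.25, adjusted p = 0.225).

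Hand1, a basic helix-loop-helix gene, had normalized counts of 25.1 and 20.4 in NT cells and 50.5 and 36.9 at 24 h at Hand1 +44 in SOX2-FKBP cells, both 24 h libraries above NT. The log2 fold change was 0.91 (SE 0.36, adjusted p = 0.0852), and with the replicate block the adjusted p was 0.0194. The Tfap2c promoter peak, Tfap2c -35, had normalized counts of 164 and 131 in NT cells and 145 and 94.2 at 24 h in OCT4-FKBP cells and a log2 fold change of -0.29 (SE 0.27, adjusted p = 0.477). It was called lost with offsets for GC content, at an adjusted p of 0.009 without and 0.000464 with the block. The weakly open promoter peaks of Elf5 (+119) and Tfap2a (+220) had log2 fold changes of 0.14 and -0.30 after SOX2 loss and -0.57 and 0.06 after OCT4 loss, with overlapping groups except for Tfap2a in SOX2-FKBP cells. Gata3 +493, which lies 1 bp from the start of 9230102O04Rik, had normalized counts of 112 and 123 in NT cells and 129 and 124 at 24 h in OCT4-FKBP cells, a log2 fold change of 0.11 (SE 0.25, adjusted p = 0.816), and 0.35 (SE 0.26, adjusted p = 0.423) after SOX2 loss.

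**Figure D2:**
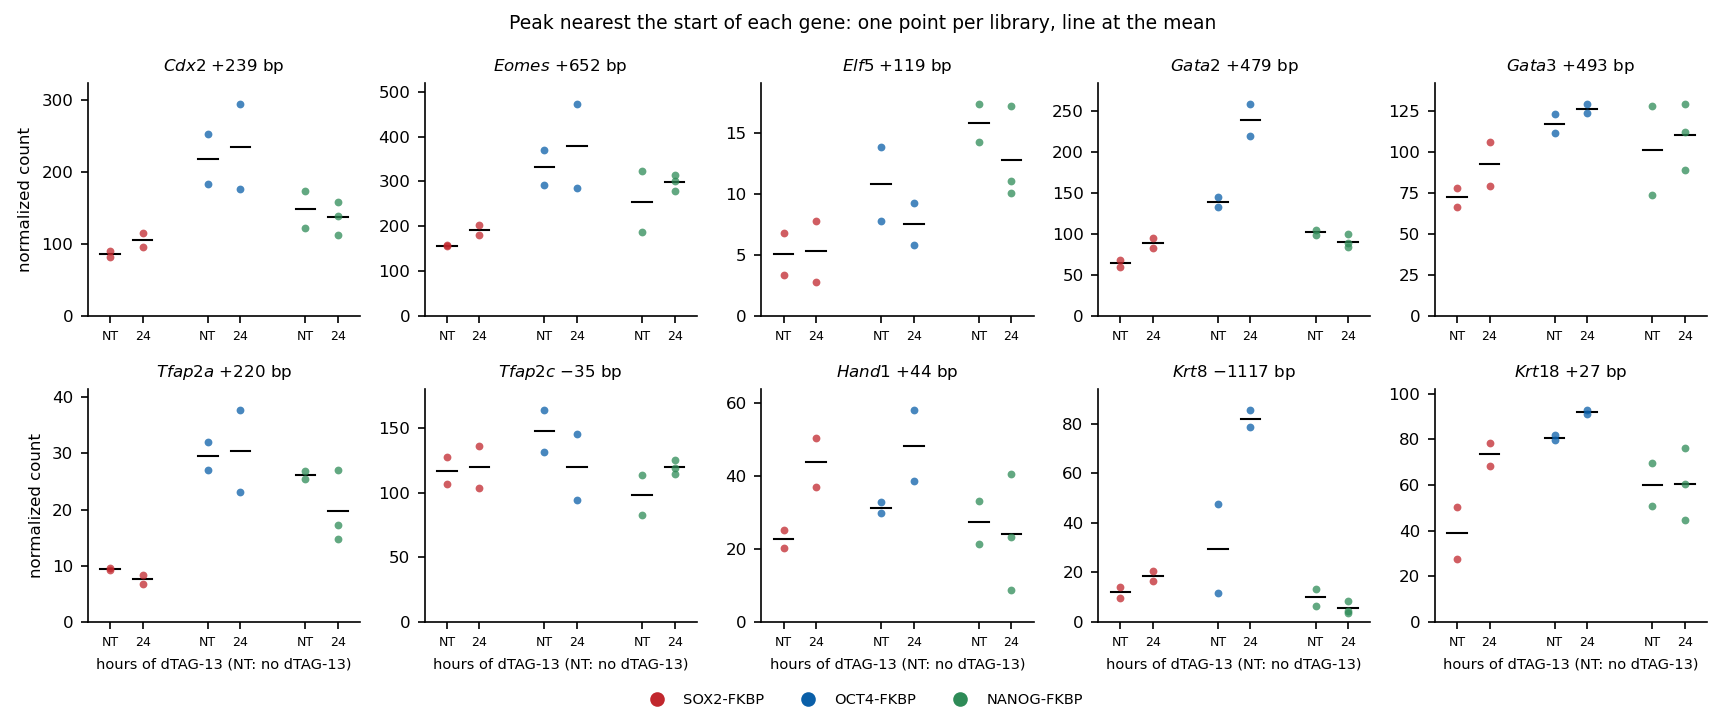
Normalized counts (y axis, linear from 0) of the peak nearest the 5′ end of each gene in NT cells and after 24 h of dTAG-13, 1 point per library and a line at the mean. In OCT4-FKBP cells the 2 points at 24 h lie above both NT points at Gata2 and Krt8, while they overlap at Cdx2, Eomes and Tfap2c. They also lie above both NT points, by less, at Gata3 and Krt18, where the change was not called.

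Krt8 and Krt18 lie next to each other on chromosome 15 of mm10, transcribed away from each other, and their 5′ ends are 23.7 kb apart. The interval between them held 6 peaks, all tested, of which 4 were gained in SOX2-FKBP and 5 in OCT4-FKBP cells at 24 h and none in NANOG-FKBP cells. These peaks are intergenic, save Krt8 -1117, which lies in an intron of Gm36026.

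The keratin peak with the smallest adjusted p was Krt18 -2427 (chr15:102025148-102026069), whose sequence with a TEAD and a GATA match is printed above. SOX2-FKBP cells had normalized counts of 13.4 and 19 in NT cells, 42 and 32.4 at 2 h, 41.5 and 47.6 at 6 h and 77.7 and 58.1 at 24 h. OCT4-FKBP cells had normalized counts of 32 and 45.7 in NT cells, 41.3 and 74 at 2 h, 85.1 and 88.5 at 6 h and 145 and 179 at 24 h. All treated libraries of the SOX2-FKBP line lay above its NT libraries from 2 h on, and those of the OCT4-FKBP line from 6 h on. The log2 fold change at 24 h was 2.10 (SE 0.35, adjusted p = 1.7e-05) after SOX2 loss and 2.04 (SE 0.28, adjusted p = 5.26e-07) after OCT4 loss, a level 4.29 and 4.1 times that of NT cells. NANOG-FKBP cells had normalized counts of 41.4 and 41.1 in NT cells and 33.2, 34.5 and 31.9 at 24 h, slightly below NT, with a change of -0.32 (SE 0.33, adjusted p = 0.822).

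Krt8 -9346 (chr15:102013523-102014521) carried a TEAD and a SOX match in its printed sequence. Its levels in OCT4-FKBP cells were normalized counts of 66.2 and 96.8 in NT cells, 135 and 168 at 2 h, 164 and 213 at 6 h and 259.5 and 256 at 24 h. In SOX2-FKBP cells they were normalized counts of 81.3 and 85.5 in NT cells, 175 and 107 at 2 h, 184 and 133 at 6 h and 221 and 154 at 24 h. At 2, 6 and 24 h every library of both lines exceeded the NT libraries of its line. Replicate 1 of SOX2-FKBP cells stood higher than replicate 2 at each of these times. At 1 h, in the fit of the 12 SOX2-FKBP libraries, the groups overlapped, with a log2 fold change of 0.56 (SE 0.25, adjusted p = 0.249). The log2 fold change at 24 h was 1.65 (SE 0.25, adjusted p = 2.36e-06) after OCT4 and 1.17 (SE 0.25, adjusted p = 0.000676) after SOX2 loss. In SOX2-FKBP cells the call was lost without 24 h replicate 1 (0.0634), with a range of 9.65e-07 to 0.0634. The 3 NANOG-FKBP libraries at 24 h, with 66.5, 69 and 76.2, lay at the NT level of 70.8 and 66.3.

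A pair of neighboring peaks further toward Krt8 moved as well. Krt18 -10097 (chr15:102017507-102018380) had normalized counts of 90.4 and 89.9 in NT cells, 162 and 125 at 2 h, 172 and 177 at 6 h and 245 and 201 at 24 h in OCT4-FKBP cells and normalized counts of 41.1 and 48.9 in NT cells, 93.5 and 59.8 at 2 h, 97.7 and 66.4 at 6 h and 139 and 114 at 24 h in SOX2-FKBP cells. No library of either line at 2, 6 or 24 h fell to the NT level. At 1 h, in the fit of the 12 SOX2-FKBP libraries, the groups overlapped, with a log2 fold change of 0.59 (SE 0.29, adjusted p = 0.308). The log2 fold changes at 24 h were 1.31 (SE 0.23, adjusted p = 3.52e-05) and 1.50 (SE 0.26, adjusted p = 2.46e-05). Krt18 -11319 (chr15:102016164-102017301) rose to 114 and 83 at 2 h from 46.9 and 38 in SOX2-FKBP cells, a log2 fold change of 1.19 (SE 0.29, adjusted p = 0.00583). That 2 h call was lost without 2 h replicate 1, NT replicate 1 or NT replicate 2. In the fit of the 12 SOX2-FKBP libraries Krt18 -11319 was not called at 0.5 h (adjusted p = 0.467) or 1 h (adjusted p = 0.107). At 24 h it stood at 122 and 114, with a change of 1.46 (SE 0.28, adjusted p = 0.000199).

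In OCT4-FKBP cells Krt18 -11319 had normalized counts of 59.2 and 59 in NT cells, 103 and 122 at 2 h, 143 and 168 at 6 h and 94.2 and 113 at 24 h. It was highest at 6 h, where the log2 fold change was 1.40 (SE 0.26, adjusted p = 8.6e-05), and lower again at 24 h, with 0.80 (SE 0.28, adjusted p = 0.0285). That last call was lost without 24 h replicate 1 (0.0538), 24 h replicate 2 (0.169), NT replicate 1 (0.0863) or NT replicate 2 (0.129) and with GC offsets (0.0588), a separate fit (0.0599) or total counts (0.0968), with a range of 0.00308 to 0.169. The fall from 6 h to 24 h was not called, with a log2 difference of -0.59 (SE 0.26, adjusted p = 0.169).

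**Figure D3:**
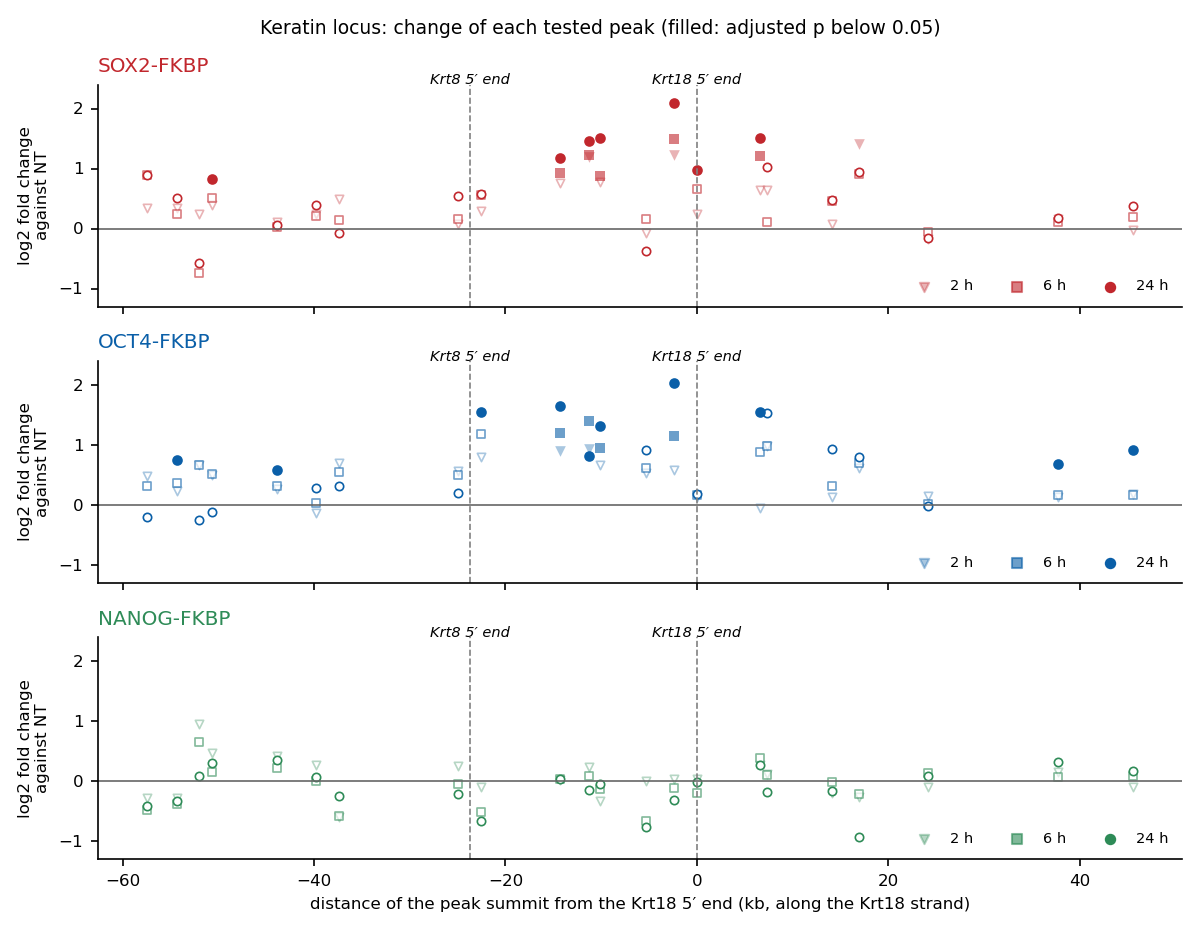
Log2 fold change against NT (y axis) of the 22 tested keratin peaks by distance of the summit from the Krt18 5′ end (x axis, kb), at 2, 6 and 24 h, with filled marks for adjusted p below 0.05. Of the filled marks at 24 h, 4 of 7 in SOX2-FKBP and 5 of 10 in OCT4-FKBP cells lie between the dashed 5′ ends, the highest at Krt18 -2427, and no mark is filled in the NANOG-FKBP panel.

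Over the Krt18 start itself (Krt18 +27, untranslated region) SOX2-FKBP cells had normalized counts of 27.7 and 50.2 in NT cells, 40.1 and 48.1 at 2 h, 62.7 and 56.2 at 6 h and 78.7 and 68.2 at 24 h. The 24 h libraries lay above NT, and the log2 fold change was 0.97 (SE 0.28, adjusted p = 0.0113). The call was lost without 24 h replicate 1 (0.126) or NT replicate 1 (0.454) and with GC offsets (0.0643), with a range of 0.00119 to 0.454. OCT4-FKBP cells had normalized counts of 81.8 and 79.8 in NT cells and 92.8 and 91.1 at 24 h, a change of 0.19 (SE 0.25, adjusted p = 0.652).

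Krt8 -1117, the peak nearest the Krt8 start, had normalized counts of 47.5 and 11.7 in NT cells, 81.7 and 20.5 at 2 h, 85.1 and 42.2 at 6 h and 85.5 and 78.8 at 24 h in OCT4-FKBP cells. The 2 NT libraries differed widely, and only at 24 h did both treated libraries exceed both. The log2 fold change was 1.55 (SE 0.44, adjusted p = 0.00781), and the call was lost without 24 h replicate 1 (0.0638) or NT replicate 2 (0.289) and with DESeq2 (0.107), with a range of 2.94e-06 to 0.289. In SOX2-FKBP cells the log2 fold change was 0.58 (SE 0.60, adjusted p = 0.581). Downstream of Krt18, Krt18 +6612 (chr15:102034068-102035017) had normalized counts of 24.3 and 28.5 in NT cells, 46.8 and 34.9 at 2 h, 63.6 and 57 at 6 h and 67 and 81.2 at 24 h in SOX2-FKBP and normalized counts of 10.9 and 17 in NT cells, 13.8 and 13.7 at 2 h, 22 and 31.1 at 6 h and 40.6 and 43.2 at 24 h in OCT4-FKBP cells. Both lines rose without overlap at 24 h, with a log2 fold change of 1.50 (SE 0.30, adjusted p = 0.00029) and 1.54 (SE 0.34, adjusted p = 0.000744) on the log2 scale.

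Krt18 +45539 lies 54 bp from the start of Eif4b, a translation initiation factor gene. In OCT4-FKBP cells it had normalized counts of 176 and 281 in NT cells, 264 and 256 at 2 h, 259.6 and 256 at 6 h and 454 and 416 at 24 h, with both 24 h libraries above NT and a log2 fold change of 0.92 (SE 0.22, adjusted p = 0.00199). That call was lost without NT replicate 1 (0.0924) and with GC offsets (0.0817) or loess offsets (0.0572), with a range of 8.26e-06 to 0.0924. In SOX2-FKBP cells, with normalized counts of 236 and 255 in NT cells and 316 and 319 at 24 h, the change was 0.37 (SE 0.23, adjusted p = 0.293). The remaining keratin calls at 24 h were 1 in SOX2-FKBP (Krt8 +27017, 0.83) and 3 in OCT4-FKBP cells (Krt18 +37682, Krt8 +20144 and Krt8 +30637, 0.67, 0.58 and 0.74), which fall outside the rule for named peaks and were named after their values were seen.

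**Figure D4:**
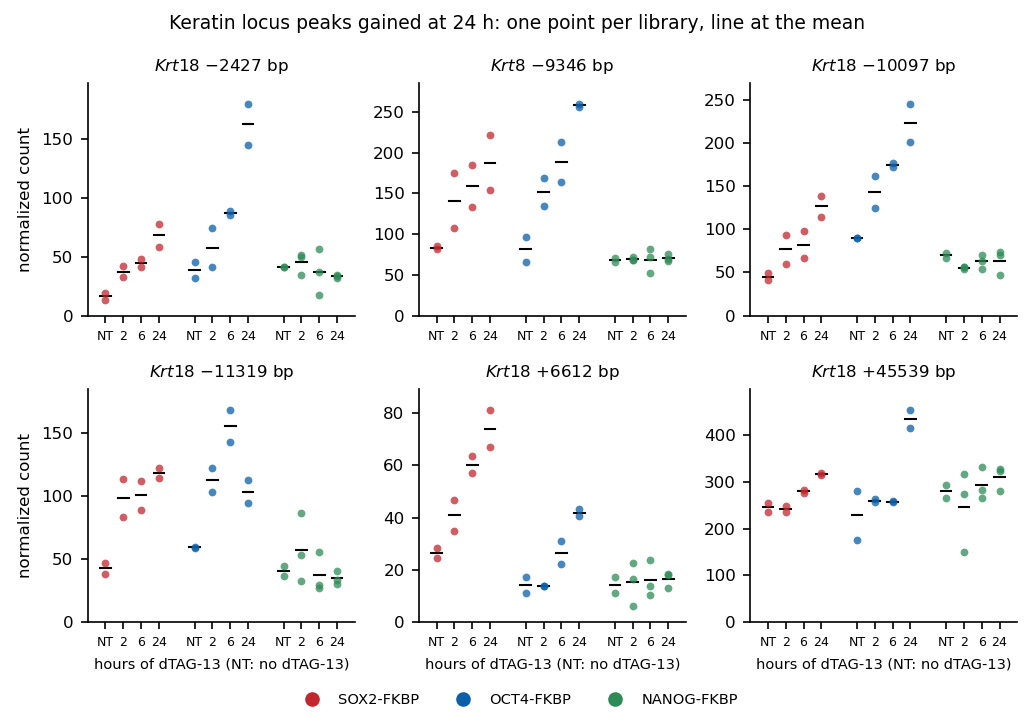
Normalized counts (y axis, linear from 0) of the 6 gained keratin peaks with the smallest adjusted p at 24 h, by hours of dTAG-13, 1 point per library and a line at the mean. The SOX2-FKBP and OCT4-FKBP means climb from NT to 24 h at Krt18 -2427, Krt18 -10097 and Krt8 -9346, and the NANOG-FKBP means show no such climb.

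Tfap2c encodes an AP-2 factor that works in trophectoderm and is also present in ES cells, and its locus had the most lost peaks in both lines. Tfap2c +27787 (chr2:172576908-172578078) had normalized counts of 496 and 411 in NT cells, 90.0 and 153 at 2 h, 67.3 and 49.8 at 6 h and 20.3 and 29.4 at 24 h in OCT4-FKBP cells. In SOX2-FKBP cells it had normalized counts of 366 and 366 in NT cells, 195 and 188 at 2 h, 137 and 118 at 6 h and 134 and 100.5 at 24 h. Every treated library lay below NT at every time in both lines. The log2 fold change at 24 h was -4.19 (SE 0.38, adjusted p = 1.29e-10) after OCT4 loss and -1.64 (SE 0.30, adjusted p = 8.12e-05) after SOX2 loss, 18.3 and 3.12 times lower than NT. The NANOG-FKBP libraries held 422 and 344 in NT cells and 355, 772 and 501 at 24 h and overlapped, with a change of 0.45 (SE 0.27, adjusted p = 0.576).

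At Tfap2c +19064 (chr2:172567521-172569195) both lines fell as well. OCT4-FKBP cells went through normalized counts of 335 and 296 in NT cells, 163 and 128 at 2 h, 119 and 110.2 at 6 h and 59.4 and 83.4 at 24 h, and SOX2-FKBP cells through normalized counts of 353 and 314 in NT cells, 268 and 200.1 at 2 h, 229.5 and 177 at 6 h and 166 and 148 at 24 h. The log2 fold changes were -2.14 (SE 0.29, adjusted p = 4.47e-07) and -1.09 (SE 0.26, adjusted p = 0.00267) at 24 h. Upstream of the gene, Tfap2c -4675 (chr2:172544731-172544988) went from 42.8 and 59.7 to 4.86 and 8.3 in SOX2-FKBP cells and from 92 and 82.4 to 8.7 and 20.1 in OCT4-FKBP cells. The changes were -2.90 (SE 0.48, adjusted p = 1.49e-05) and -2.60 (SE 0.43, adjusted p = 1.19e-05), and the NANOG-FKBP libraries overlapped at 24.1 and 33.2 and 30.1, 43.1 and 33.2.

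Gains at Tfap2c were fewer. Tfap2c -47212 rose in both lines, from 14.2 and 9.5 to 46.6 and 29.5 in SOX2-FKBP and from 34.3 and 21.8 to 55.1 and 60.2 in OCT4-FKBP cells, with a log2 fold change of 1.62 (SE 0.41, adjusted p = 0.00443) and 1.06 (SE 0.34, adjusted p = 0.02). The SOX2-FKBP call was lost without 24 h replicate 1 (0.13) or NT replicate 2 (0.0741), with a range of 0.00012 to 0.13. The OCT4-FKBP call was lost without 24 h replicate 1 (0.0714), 24 h replicate 2 (0.0956) or NT replicate 2 (0.257) and with total counts (0.0613), with a range of 0.00101 to 0.257. Tfap2c -26814 rose from 81.1 and 68.6 to 139 and 167 in OCT4-FKBP cells, with a log2 fold change of 1.04 (SE 0.25, adjusted p = 0.00152). In SOX2-FKBP cells the change there was 0.66 (SE 0.25, adjusted p = 0.0737), and with the replicate block its adjusted p was 0.0111.

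Tfap2a, the other AP-2 gene of the set, lost peaks at and beyond its 3′ part. Tfap2a +21087 (chr13:40716918-40717871, exon) had normalized counts of 177 and 189 in NT cells, 94.5 and 97.1 at 2 h, 98.6 and 93 at 6 h and 59.2 and 65.5 at 24 h in SOX2-FKBP cells. It was lower than NT in every treated library, and the log2 fold change was -1.55 (SE 0.24, adjusted p = 4.15e-06). In OCT4-FKBP cells it had normalized counts of 124 and 189 in NT cells and 107 and 98.9 at 24 h, a change of -0.61 (SE 0.23, adjusted p = 0.0515). That change just missed the threshold and passed it with the replicate block (adjusted p = 0.0143). Tfap2a +23577 (chr13:40714489-40715082) had normalized counts of 20.1 and 35.3 in NT cells, 2.86 and 7.47 at 2 h, 1.84 and 4.69 at 6 h and 2.91 and 3.69 at 24 h in SOX2-FKBP and normalized counts of 81.1 and 83.5 in NT cells and 31.9 and 35.5 at 24 h in OCT4-FKBP cells.

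The log2 fold changes of Tfap2a +23577 were -2.96 (SE 0.59, adjusted p = 0.000265) and -1.29 (SE 0.36, adjusted p = 0.00704), and the OCT4-FKBP call was lost without 24 h replicate 1 (0.0899), with a range of 7.99e-05 to 0.0899. In NANOG-FKBP cells the same peak went the other way, from 60.1 and 31.6 in NT to 85.8, 168 and 77.4 at 24 h, with a change of 1.1 (SE 0.34, adjusted p = 0.072). With the replicate block that rise was called, at an adjusted p of 0.000393, although the numbers were not taken to pair NT with treated NANOG-FKBP libraries. Tfap2a -18317 fell in both lines, from 85.5 and 100.4 to 35.9 and 36.9 in SOX2-FKBP and from 62.4 and 103 to 20.3 and 40.2 in OCT4-FKBP cells. The changes were -1.34 (SE 0.31, adjusted p = 0.00149) and -1.47 (SE 0.33, adjusted p = 0.000956), and the latter call was lost without 24 h replicate 1 (0.0818) or NT replicate 2 (0.0531), with a range of 5.15e-06 to 0.0818.

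The 1 gained Tfap2a peak, Tfap2a +15215 (exon), lies 51 bp from the start of the gene model Gm47061. OCT4-FKBP cells had normalized counts of 208 and 204 in NT cells, 268 and 202 at 2 h, 259.6 and 202 at 6 h and 434 and 281 at 24 h, with a rise at 24 h of 0.80 (SE 0.21, adjusted p = 0.00505). The call was lost without 24 h replicate 1 (0.245) or NT replicate 2 (0.0599) and with GC offsets (0.166), the replicate block with GC offsets (0.0618) or a separate fit (0.0545), with a range of 9.59e-05 to 0.245. In SOX2-FKBP cells, normalized counts of 164 and 160.1 in NT cells and 236 and 245 at 24 h, the rise was 0.57 (SE 0.22, adjusted p = 0.0747), and with the replicate block its adjusted p was 0.00804.

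**Figure D5:**
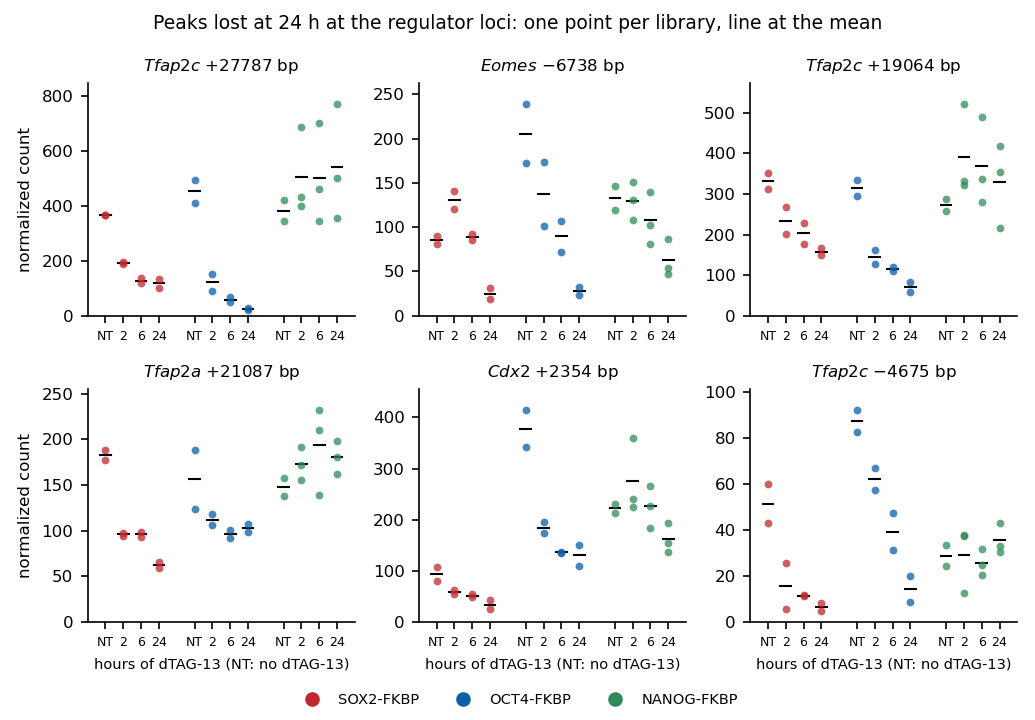
Normalized counts (y axis, linear from 0) of the 6 lost peaks with the smallest adjusted p at 24 h at the 8 regulator loci, by hours of dTAG-13, 1 point per library and a line at the mean. The OCT4-FKBP points at Tfap2c +27787 drop from 496 and 411 to 20.3 and 29.4, and at Eomes -6738 and Cdx2 +2354 the NANOG-FKBP points at 24 h also lie below NT.

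At Eomes, 2 upstream peaks were lost in more than 1 line. Eomes -6738 (chr9:118470856-118472003), whose sequence holds the POU octamer printed above, had normalized counts of 172 and 239 in NT cells, 101 and 173 at 2 h, 71.6 and 107 at 6 h and 23.2 and 32.4 at 24 h in OCT4-FKBP cells. The groups overlapped at 2 h, and at 6 and 24 h both libraries were below NT. SOX2-FKBP cells had normalized counts of 81.3 and 89.6 in NT cells, 120.2 and 141 at 2 h, 92.2 and 85.2 at 6 h and 31.1 and 18.4 at 24 h, with both 2 h libraries above NT and both 24 h libraries below. NANOG-FKBP cells had normalized counts of 119 and 147 in NT cells, 108, 130.4 and 151 at 2 h, 80.7, 139.8 and 102 at 6 h and 47.2, 86.2 and 54.1 at 24 h, with all 24 h libraries below both NT libraries. The log2 fold changes at 24 h were -2.89 (SE 0.33, adjusted p = 1.25e-08), -1.78 (SE 0.33, adjusted p = 9.21e-05) and -1.23 (SE 0.28, adjusted p = 0.00724). The NANOG-FKBP call was lost without 24 h replicate 1 (0.102), 24 h replicate 3 (0.059) or NT replicate 2 (0.0992), with a range of 6.8e-05 to 0.102.

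Eomes -9776 (chr9:118468185-118468927) had normalized counts of 111 and 123 in NT cells and 37.7 and 30.9 at 24 h in OCT4-FKBP, normalized counts of 37.7 and 40.7 in NT cells and 22.3 and 20.3 at 24 h in SOX2-FKBP and normalized counts of 46.8 and 75.8 in NT cells and 28.6, 34.5 and 24.6 at 24 h in NANOG-FKBP cells. All 24 h libraries lay below the NT libraries of their line. The changes were -1.76 (SE 0.29, adjusted p = 1.62e-05), -0.87 (SE 0.33, adjusted p = 0.0708) and -1.12 (SE 0.30, adjusted p = 0.0331), and with the replicate block the SOX2-FKBP loss was called at an adjusted p of 0.0209. The NANOG-FKBP call was lost without 24 h replicate 1 (0.117), 24 h replicate 3 (0.178) or NT replicate 2 (0.462) and with DESeq2 (0.0597) or a separate fit (0.0742), with a range of 0.0214 to 0.462. Of the Eomes gains, Eomes +33282 lies inside Golga4. It rose from 8.38 and 10.9 to 25.2 and 36.9 in SOX2-FKBP cells, with a log2 fold change of 1.72 (SE 0.41, adjusted p = 0.00234), a call lost without 24 h replicate 2 (0.0637) or NT replicate 1 (0.102), with a range of 0.000122 to 0.102.

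Cdx2 had no gained peak in any line. Cdx2 +2354 (chr5:147304203-147305563), in an intron of Cdx2, had normalized counts of 414 and 341 in NT cells, 174 and 195 at 2 h, 137 and 135 at 6 h and 151 and 109.7 at 24 h in OCT4-FKBP cells. Both 2 h libraries were already below NT. SOX2-FKBP cells had normalized counts of 80.5 and 107 in NT cells, 62 and 54.8 at 2 h, 53.5 and 48.4 at 6 h and 24.3 and 42.4 at 24 h, with no overlap from 2 h on. The log2 fold changes at 24 h were -1.53 (SE 0.24, adjusted p = 6.03e-06) and -1.47 (SE 0.28, adjusted p = 0.000177). In NANOG-FKBP cells, normalized counts of 214 and 231 in NT cells and 136, 194 and 155 at 24 h, the 24 h libraries also lay below NT, with a change of -0.51 (SE 0.23, adjusted p = 0.342) that was not called.

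Cdx2 +29547, nearest Gm27033, fell from 334 and 229 to 164 and 100.4 in OCT4-FKBP cells, with a log2 fold change of -1.08 (SE 0.27, adjusted p = 0.00217). The call was lost without 24 h replicate 2 (0.0786) or NT replicate 1 (0.0622), with a range of 9.8e-06 to 0.0786. In SOX2-FKBP cells it went from 65.4 and 78.7 to 34 and 37.8, with a change of -0.99 (SE 0.32, adjusted p = 0.0269), lost without 24 h replicate 1 (0.139), 24 h replicate 2 (0.0929) or NT replicate 2 (0.136), with a range of 0.000812 to 0.139.

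At Elf5, an ETS factor gene of the trophoblast lineage, 1 peak gained in both lines lay in an intron. Elf5 +25812 (chr2:103437421-103437706, intron) had normalized counts of 12.5 and 15.4 in NT cells, 33.1 and 33 at 2 h, 35.5 and 56.9 at 6 h and 30.4 and 57.2 at 24 h in OCT4-FKBP cells and normalized counts of 7.54 and 4.07 in NT cells, 6.68 and 13.3 at 2 h, 9.22 and 17.2 at 6 h and 20.4 and 26.7 at 24 h in SOX2-FKBP cells. Both 24 h groups lay above NT, with a log2 fold change of 1.62 (SE 0.38, adjusted p = 0.00137) and 1.92 (SE 0.49, adjusted p = 0.0045). The OCT4-FKBP call was lost without 24 h replicate 2 (0.105), with a range of 3.68e-05 to 0.105. The SOX2-FKBP call was lost without 24 h replicate 2 (0.0593) or NT replicate 2 (0.0739), with a range of 0.000562 to 0.0739.

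Gata2 and Gata3 encode zinc finger factors that drive trophoblast genes. Gata3 +28699 (chr2:9860845-9862005, intron) had normalized counts of 15.6 and 22.3 in NT cells, 13.8 and 21.8 at 2 h, 32.5 and 35.2 at 6 h and 55.1 and 75.7 at 24 h in OCT4-FKBP cells. The groups overlapped at 2 h and both libraries were higher at 24 h, with a log2 fold change of 1.75 (SE 0.33, adjusted p = 0.000102). The same peak had normalized counts of 25.1 and 31.2 in NT cells and 51.5 and 36 at 24 h in SOX2-FKBP and normalized counts of 18.7 and 11.1 in NT cells and 30.9, 25.9 and 44.2 at 24 h in NANOG-FKBP cells. There the 24 h libraries also lay above NT, but the changes of 0.65 (SE 0.34, adjusted p = 0.204) and 1.21 (SE 0.40, adjusted p = 0.109) were not called. Gata3 -49495, inside Taf3, fell from 31.9 and 31.2 to 9.71 and 12.9 in SOX2-FKBP cells, with a log2 fold change of -1.47 (SE 0.40, adjusted p = 0.00803), a call lost without 24 h replicate 1 (0.0905) or NT replicate 1 (0.0524), with a range of 0.00061 to 0.0905.

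The named Gata2 peaks beyond its promoter lie toward or inside Dnajb8, a chaperone gene. Gata2 +32922 (chr6:88226121-88227215, an intron of Dnajb8) had normalized counts of 27.7 and 23.1 in NT cells, 33.4 and 43.2 at 2 h, 56.2 and 31.2 at 6 h and 86.4 and 58.1 at 24 h in SOX2-FKBP cells, a rise of 1.48 (SE 0.33, adjusted p = 0.00114). The call was lost without 24 h replicate 1 (0.0629), with a range of 4.83e-06 to 0.0629. In NANOG-FKBP cells the same peak had normalized counts of 38.8 and 26.9 in NT cells and 16.2, 12.9 and 12.3 at 24 h, the opposite direction, with a change of -1.20 (SE 0.40, adjusted p = 0.122). Gata2 +27462 rose from 16.8 and 20.4 to 50.5 and 37.8 in SOX2-FKBP cells, with a log2 fold change of 1.26 (SE 0.34, adjusted p = 0.00619), a call lost without 24 h replicate 1 (0.123) or NT replicate 1 (0.157), with a range of 0.000638 to 0.157.

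Among the losses there, Gata2 +21996 fell from 168 and 210.1 to 82.6 and 86.5 in OCT4-FKBP cells, with a log2 fold change of -1.16 (SE 0.25, adjusted p = 0.000574), and in SOX2-FKBP cells with a log2 fold change of -0.89 (SE 0.25, adjusted p = 0.00956), a call lost without 24 h replicate 2 (0.0947) or NT replicate 2 (0.0513), with a range of 7.37e-05 to 0.0947. Gata2 +42224 fell from 62 and 69.2 to 34 and 24 in SOX2-FKBP cells, with a log2 fold change of -1.17 (SE 0.28, adjusted p = 0.00187), lost without 24 h replicate 2 (0.0695), with a range of 6.36e-06 to 0.0695. Gata2 +38292 fell in OCT4-FKBP cells, from 63.1 and 81.9 to 13.1 and 35.5, with a log2 fold change of -1.60 (SE 0.45, adjusted p = 0.00746). It was called lost in NANOG-FKBP cells too, at -1.39 (SE 0.36, adjusted p = 0.0236), though with normalized counts of 191 and 72.7 in NT cells and 56.4, 86.2 and 28.3 at 24 h the groups overlapped.

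The OCT4-FKBP call was lost without 24 h replicate 1 (0.231) or NT replicate 2 (0.0646), with a range of 2.01e-05 to 0.231. The NANOG-FKBP call was lost without 24 h replicate 1 (0.07), 24 h replicate 3 (0.263) or NT replicate 1 (0.803) and with DESeq2 (0.0599), with a range of 0.000605 to 0.803. Hand1 -22861 (chr11:57855493-57856354) rose in OCT4-FKBP cells, with normalized counts of 10.1 and 5.32 in NT cells, 5.51 and 19.9 at 2 h, 15.9 and 14.1 at 6 h and 24.6 and 37.1 at 24 h. The 24 h libraries lay above NT at low levels, with a log2 fold change of 2.04 (SE 0.45, adjusted p = 0.000712). In SOX2-FKBP cells, normalized counts of 12.6 and 13.6 in NT cells and 31.1 and 20.3 at 24 h, the change was 0.97 (SE 0.43, adjusted p = 0.127).

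At 2 and 6 h the gained peaks of SOX2-FKBP cells all lay at the keratin locus in the fit without a block. In SOX2-FKBP cells at 2 h, 3 members were gained (1.62%, all peaks 0.574%) and 6 lost (3.24%, all peaks 5.06%). The 3 gained were Krt18 -11319, Krt18 -2427 and Krt18 +16909, the last of which falls outside the rule and was named after its values were seen. Its log2 fold change was 1.42 (SE 0.38, adjusted p = 0.0138). At 6 h, 5 were gained (2.7%, all peaks 1.18%) and 10 were lost (5.41%, all peaks 6.83%). The 5 gained all lay at the keratin locus (Krt18 -11319, -10097, -2427 and +6612 and Krt8 -9346), and the 10 lost all lay at the regulators. Without the block, edgeR called no regulator peak gained at 2 or 6 h after SOX2 loss, although 14 and 12 were higher at an unadjusted p under 0.05. DESeq2, also fitted without the block, called 0.

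In OCT4-FKBP cells at 2 h, 8 members were gained (4.32%, all peaks 1.92%) and 4 lost (2.16%, all peaks 5.1%). At 6 h 11 were gained (5.95%, all peaks 4.12%) and 12 lost (6.49%, all peaks 7.97%). The keratin locus gave 2 of the gains at 2 h (Krt18 -11319 and Krt8 -9346) and 4 at 6 h (these and Krt18 -10097 and -2427). The other gains at 2 h were 6 regulator peaks: Elf5 +24479 and +25812, Eomes +4171, Hand1 -39504 and -36286, and Tfap2c -28488, all but Elf5 +25812 and Tfap2c -28488 named after their values were seen. Of these 6, only Elf5 +25812 was still called gained at 24 h. In NANOG-FKBP cells edgeR called no member gained (all peaks 0.0162%) or lost (all peaks 0.938%) at 2 h, nor at 6 h (all peaks 0.0367% and 1.08%). At these times 7 and 9 had an unadjusted p under 0.05, and DESeq2 called 0.

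With the replicate block the early counts were higher: 13 gained and 13 lost at 2 h and 11 and 18 at 6 h in SOX2-FKBP cells, and 15 and 17 at 2 h and 22 and 22 at 6 h in OCT4-FKBP cells, where all peaks stood at 2.51% and 7.44%, 3.72% and 9.54%, 5.17% and 7.41%, and 8.8% and 10.9%. Regulator peaks then made up 8 and 6 of the gains of SOX2-FKBP cells at 2 and 6 h. Without the block, single libraries decided several of these counts. The SOX2-FKBP gains at 2 h fell to 0 without 2 h replicate 1, NT replicate 1 or NT replicate 2, and the losses to 0, 3 and 1 without 2 h replicate 1, 2 h replicate 2 and NT replicate 2. At 6 h the gains were 1 without 6 h replicate 1 or NT replicate 1 and 2 without NT replicate 2, and the losses 5 without 6 h replicate 1, 6 h replicate 2 or NT replicate 2. In OCT4-FKBP cells the gains at 2 h were 2 to 5 with any 1 library left out (lowest without NT replicate 1), and the losses rose to 8 without NT replicate 1. At 6 h the gains were 7 without NT replicate 1, and the losses 7 without 6 h replicate 1 and 6 without NT replicate 2. In the 12 libraries of the full SOX2-FKBP course, 3 of 177 members were called at 0.5 h, against 3.3% of all peaks, and 9 at 1 h, against 6.35%. The 3 at 0.5 h were Tfap2a +23577 and Tfap2c -32793, both lower, and Eomes -6738, which was higher. Of the 9 at 1 h, 2 were higher (Eomes -6738 and Gata2 -40955) and 7 lower, beside 1427 higher and 8754 lower of all 160432 peaks. No keratin peak was called at 0.5 or 1 h. Tfap2c -32793 and Gata2 -40955 were named after their values were seen.

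On the scale of these 12 libraries Tfap2a +23577 went from 20.8 and 36.8 in NT cells to 9.8 and 6.25 at 0.5 h and 4.01 and 12 at 1 h. The log2 fold change was -1.68 (SE 0.47, adjusted p = 0.0328) at 0.5 h and -1.90 (SE 0.49, adjusted p = 0.0106) at 1 h. Eomes -6738 rose at first, from 84.2 and 93.4 to 129 and 158 at 0.5 h and 155 and 135 at 1 h, with a log2 fold change of 0.68 (SE 0.20, adjusted p = 0.0449) and 0.73 (SE 0.20, adjusted p = 0.0168). It had passed below NT by 24 h. Between 6 and 24 h in SOX2-FKBP cells it was the 1 member called (0.541%, all peaks 0.101%), with a difference of -1.84 (SE 0.32, adjusted p = 0.0127). Leaving out any 1 of the 4 libraries of that comparison left 0 calls. At 0.5 h the count was 0 without 0.5 h replicate 1 or NT replicate 2 and 1 without NT replicate 1. At 1 h it was 1 without 1 h replicate 1 or NT replicate 2, 5 without NT replicate 1 and 18 without 1 h replicate 2.

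In OCT4-FKBP cells 10 members differed between 6 and 24 h (5.41%, all peaks 7.41%), 2 higher and 8 lower at 24 h. The count was 0 without 24 h replicate 1 and 5 without 6 h replicate 2. In the fit with the replicate block the counts were 28 in OCT4-FKBP, 4 in SOX2-FKBP and 3 in NANOG-FKBP cells. Among the named peaks, Eomes -6738 went down with a log2 fold change of -1.69 (SE 0.34, adjusted p = 0.00136) and Krt18 -2427 up with a log2 fold change of 0.90 (SE 0.26, adjusted p = 0.0276). Tfap2a -18317 and Tfap2c -4675 also fell, with a log2 fold change of -1.26 (SE 0.34, adjusted p = 0.0159) and -1.45 (SE 0.46, adjusted p = 0.0426), and the Eif4b-side peak Krt18 +45539 rose with a log2 fold change of 0.75 (SE 0.22, adjusted p = 0.0302). In NANOG-FKBP cells edgeR called none (all peaks 0.0%), with 11 at an unadjusted p under 0.05 and 0 by DESeq2.

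The change at 24 h differed between OCT4-FKBP and SOX2-FKBP cells at 2 of 185 members, against 2.77% of all peaks, both at Tfap2c. At Tfap2c +27787 the fall was larger after OCT4 loss, with a log2 difference of -2.55 (SE 0.49, adjusted p = 0.00138). At Tfap2c -28488 (chr2:172520847-172521251) the directions were opposite. OCT4-FKBP cells had normalized counts of 13.2 and 20.7 in NT cells, 50.5 and 28.6 at 2 h, 43.5 and 50.4 at 6 h and 21.8 and 34 at 24 h and SOX2-FKBP cells normalized counts of 35.2 and 40.7 in NT cells, 23.9 and 26.6 at 2 h, 21.2 and 18.8 at 6 h and 12.6 and 17.5 at 24 h. The OCT4-FKBP libraries were above NT at 2 and 6 h, where the peak was called gained, and the SOX2-FKBP libraries below. The difference at 24 h was 1.98 (SE 0.55, adjusted p = 0.0373), and the SOX2-FKBP change of -1.31 (SE 0.38, adjusted p = 0.0136) was no longer called without 24 h replicate 1 (0.14) or NT replicate 2 (0.0726), with a range of 0.000864 to 0.14.

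No keratin peak differed between these lines, with 4 of 22 at an unadjusted p under 0.05 and 0 by DESeq2, and a p that misses the threshold does not show that the lines act alike. At Krt18 -2427 the difference was -0.06 (SE 0.42, adjusted p = 0.972). With the replicate block 11 members differed (5.95%, all peaks 7.04%), still none at the keratin locus. Without the block the count was 1 with total counts in place of TMM, and also without OCT4-FKBP NT replicate 1 or any 1 of the 4 SOX2-FKBP libraries of that comparison.

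Against NANOG-FKBP, 11 members changed differently in OCT4-FKBP cells (5.95%, all peaks 8.89%) and 12 in SOX2-FKBP cells (6.49%, all peaks 6.78%). The 2 comparisons share the NANOG-FKBP libraries. At the keratin locus 3 differed in each, all higher than in NANOG-FKBP cells, by differences between log2 fold changes: Krt18 -2427 with 2.36 (SE 0.43, adjusted p = 0.000197) and 2.42 (SE 0.48, adjusted p = 0.000626), Krt18 -10097 with 1.35 (SE 0.34, adjusted p = 0.00705) and 1.55 (SE 0.36, adjusted p = 0.00342), Krt8 -9346 in OCT4-FKBP cells and Krt18 -11319 in SOX2-FKBP cells. With the replicate block 26 and 25 members differed (all peaks 16% and 11.5%), 8 of them at the keratin locus in each comparison. At the regulators the differences were mostly falls: 8 lower and 0 higher in OCT4-FKBP cells and 8 lower and 1 higher (Gata2 +32922) in SOX2-FKBP cells.

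The member peaks were more often intergenic than the peak set as a whole. Their median width was 721 bp and their median GC content 52.7%, beside 636 bp and 50% over all peaks. Of the 195, 115 were intergenic (59.0%, all peaks 38.0%), 50 intronic (25.6%, all peaks 48.7%), 17 exonic and 13 in untranslated regions. Within 1 kb of any gene start, 4 of 27 tested members were gained after OCT4 loss (14.8%), where 36.5% of all such peaks were, and 2 after SOX2 loss (7.41%, all 7.25%). Farther away the shares gained were 10.1% of 158 members against 7.27% after OCT4 loss, and 7.59% against 4.54% after SOX2 loss.

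In the 300 bases centered on the summit, the POU octamer letters were present in 4.1% of the members and 4.8% of all peaks, the SOX letters in 44.6% and 49.2%, and the SOX-POU composite in none of 195 and 0.222%. TFAP2 letters were present in 20.0% of the members and 11.9% of all peaks, GATA letters in 24.6% and 24.4%, TEAD letters in 17.9% and 18.8%, CDX letters in 10.8% and 11.4%, and T-box letters in 7.69% and 9.56%. The composite contains part of the SOX letters on the opposite strand and overlaps the octamer, so these shares are not separate. Among members gained at 24 h, TEAD letters were present in 5 of 14 in SOX2-FKBP and 7 of 20 in OCT4-FKBP cells (35.7% and 35%), where all gained peaks had 22.3% and 18.9%. TFAP2 letters were present in 5 of 14 and 6 of 20 (35.7% and 30%, all gained peaks 17.9% and 23.6%). GATA letters stood at 28.6% and 25% of these gained members (all gained peaks 19.8% and 19.5%). SOX letters stood at 21.4% and 30% (40.9% and 41.1%), and CDX letters at 0 of 14 and 2 of 20 (9.18% and 7.4%). SOX letters were present in 12 of 21 and 15 of 26 lost members (57.1% and 57.7%), where all lost peaks had 67.8% and 59.8%. These shares rest on few peaks and were not tested.

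Other trophoblast genes were measured in the same 50 kb windows and had more gains than losses at 24 h in the OCT4-FKBP and SOX2-FKBP lines. A wider list of 17 genes with a peak in their window, among them Tead4, Ascl2, Krt7 and Krt19, had 267 tested peaks. Of these, 30 were gained and 19 lost in SOX2-FKBP cells at 24 h (11.2% and 7.12%, all peaks 4.87% and 10.9%), 35 and 21 in OCT4-FKBP cells (13.1% and 7.87%, all peaks 10.8% and 12.7%), and 1 and 3 in NANOG-FKBP cells. The naive pluripotency genes Pou5f1, Nanog, Klf4, Esrrb, Zfp42 and Tfcp2l1 went mainly the other way, with 6 gained and 43 lost of 132 peaks after OCT4 loss (4.55% and 32.6%) and 2 and 19 after SOX2 loss (1.52% and 14.4%), beside the shares of all peaks just given. The other marker lists, of formative epiblast, primitive endoderm, mesendoderm, neural and fibroblast genes, had 2 to 11 gained and 6 to 12 lost of 50 to 67 peaks in OCT4-FKBP cells. In that order, the shares gained were 9.84%, 10.3%, 3.51%, 6% and 16.4%, and the shares lost 19.7%, 15.5%, 19.3%, 12% and 8.96%. After SOX2 loss the shares gained were 6.56%, 0%, 3.51%, 0% and 7.46%, and the shares lost 11.5%, 5.17%, 17.5%, 8% and 11.9%. The shares of all peaks are those given above. For fibroblasts, a common feeder type for ES cells, 11 peaks were gained (16.4%, all peaks 10.8%) and 6 lost after OCT4 loss and 5 and 8 after SOX2 loss, and the part of such cells in the keratin gains was not tested.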

How the data were processed

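ATACseq was performed by the authors, who aligned reads to mm10 with BWA 0.7.17-r1188, filtered with SAMtools 1.10, removed duplicates with Picard 2.12.0 and called peaks on merged data with MACS2. The authors deposited raw fragment counts per peak, and these counts were used as deposited. Of 45 samples in the series, 31 were used and 14 were not analysed here. Group means were fitted in edgeR 4.0.16 under R 4.3.3, with TMM scaling, glmQLFit and glmQLFTest. One fit held the 27 libraries of the 3 lines at shared times, with 166430 peaks whose count passed 10 in over 6 libraries. The other held the 12 SOX2-FKBP libraries of all times, with 160432 peaks whose count passed 10 in over 2. The study's own test was DESeq2, run here as an alternative (1.42.0), as were limma 3.58.1 loess offsets. The standard error was taken from the log2 fold change and its F statistic. Code was checked on simulated data. Gene starts come from GENCODE M21 and sequences from RefSeq GRCm38.p6, read with pysam 0.24.0 (Python 3.11.15, pandas 2.3.3, numpy 2.4.6, matplotlib 3.10.9). Members and lists were chosen with earlier results of these data known. Peaks named with values are the one nearest each gene start, up to 10 gained and 10 lost per line at 24 h by adjusted p, and those called in the OCT4 against SOX2 difference. Sequences are those of up to 8 of these outside untranslated regions, at most 1 gained and 1 lost per gene. One peak that this rule names is not reported here. Same-numbered libraries deviated together in the SOX2-FKBP (r 0.0766 to 0.173 over all tested peaks, 0.161 to 0.34 over 46384 peaks of mean count 50 or more) and OCT4-FKBP lines (0.13 to 0.334 and 0.328 to 0.601), and the numbers were taken to pair them, on the second measure in SOX2-FKBP. They were not taken to pair NT with treated NANOG-FKBP libraries (-0.122 to 0.353). The labels give the numbers but not their origin. The alternatives were window sizes of 25 and 100 kb, count filters, scalings, GC offsets in 50 bins, the replicate block, separate fits, DESeq2 and leaving out each library.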

Additional observations from a re-analysis of the deposited data

Results flagged for a closer look

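The change from NT to 24 h differed between lines, by the test of the difference itself, at 13 of the named peaks, listed here as the first line's log2 fold change minus the second's. No explanation was weighed. Between OCT4-FKBP and SOX2-FKBP cells the difference was -2.55 (adjusted p = 0.00138) at Tfap2c +27787 and 1.98 (adjusted p = 0.0373) at Tfap2c -28488. Between OCT4-FKBP and NANOG-FKBP cells, 3 keratin peaks opened more after OCT4 loss: Krt18 -2427 by 2.36 (adjusted p = 0.000197), Krt8 -9346 by 1.61 (adjusted p = 0.00246) and Krt18 -10097 by 1.35 (adjusted p = 0.00705). In the same comparison 3 Tfap2c peaks were lower, with -4.64 (adjusted p = 1.03e-08) at Tfap2c +27787, -2.83 (adjusted p = 0.00119) at Tfap2c -4675 and -2.37 (adjusted p = 3.16e-05) at Tfap2c +19064. So were Tfap2a +23577 at -2.38 (adjusted p = 0.00087), Eomes -6738 at -1.66 (adjusted p = 0.0116) and Cdx2 +2354 at -1.02 (adjusted p = 0.0432). Between SOX2-FKBP and NANOG-FKBP cells, 4 peaks were higher: Gata2 +32922 by 2.68 (adjusted p = 0.000446), Krt18 -2427 by 2.42 (adjusted p = 0.000626), Krt18 -11319 by 1.61 (adjusted p = 0.0144) and Krt18 -10097 by 1.55 (adjusted p = 0.00342). At Tfap2a the differences were -4.06 (adjusted p = 5.03e-05) at +23577 and -1.81 (adjusted p = 0.000119) at +21087. At Tfap2c they were -3.13 (adjusted p = 0.000797) at -4675, -2.10 (adjusted p = 0.000388) at +27787, -1.80 (adjusted p = 0.017) at -28488 and -1.31 (adjusted p = 0.0168) at +19064. The comparisons with NANOG-FKBP share its 5 libraries, and the line and the factor cannot be told apart.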

How the results depend on the processing

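No called change of a named peak reversed its direction under any alternative. The median log2 fold change of the members at 24 h did turn negative, in SOX2-FKBP from 0.02 to -0.08 with GC offsets, -0.06 with GC offsets and the block, -0.02 with a separate fit, -0.02 with total counts and -0.07 with at least 10 counts in every library, and in OCT4-FKBP from 0.05 to -0.06 (GC offsets), -0.065 (block and GC offsets), -0.08 (total counts) and -0.09 (10 counts in every library). The keratin median stayed positive in both lines under every scaling and filter and was lowest with at least 10 counts in every library, at 0.32 and 0.43. Counts below are of members gained or lost against NT, or called in a difference, where they moved by over 1.5 times. Within 25 kb the counts were 6 lost in SOX2-FKBP at 6 h, 7 gained and 13 lost at 24 h, 4, 6 and 11 gained in OCT4-FKBP at 2, 6 and 24 h with 14 lost at 24 h, 0 for OCT4 against SOX2 and 5 for OCT4-FKBP 24 h against 6 h. Within 100 kb they were 6 gained and 12 lost in SOX2-FKBP at 2 h, 19 and 32 lost at 6 and 24 h, 12, 22 and 50 lost in OCT4-FKBP at 2, 6 and 24 h with 32 gained at 24 h, 6, 25 and 19 for the differences OCT4-SOX2, OCT4-NANOG and SOX2-NANOG, and 2 and 20 for 24 h against 6 h in SOX2-FKBP and OCT4-FKBP. These windows hold fewer or more peaks. Without the Krt8 and Krt18 peaks, an alternative chosen after seeing the data, 7 were gained in SOX2-FKBP and 10 in OCT4-FKBP at 24 h. With at least 10 counts in every library, where fewer peaks were tested, SOX2-FKBP had 0 gained and 2 lost at 2 h, 2 and 6 at 6 h and 2 and 10 at 24 h, OCT4-FKBP 2, 1 and 9 gained at 2, 6 and 24 h and 14 lost at 24 h, NANOG-FKBP 1 lost at 24 h, and the OCT4-SOX2 and SOX2-NANOG differences 1 and 5. With DESeq2, 3 were lost in SOX2-FKBP at 2 h, 5 gained in OCT4-FKBP at 2 h, 1 lost in NANOG-FKBP at 24 h, and 0 and 2 called in SOX2-FKBP at 0.5 and 1 h. GC offsets gave 5 gained in OCT4-FKBP at 2 h. Total counts gave 4 and 7 gained in OCT4-FKBP at 2 and 6 h, 1 for OCT4-SOX2 and 1 at 0.5 h, and moved the median of all peaks in OCT4-FKBP at 24 h from -0.01 to -0.14. The replicate block gave 13 gained and 13 lost in SOX2-FKBP at 2 h, 11 and 18 at 6 h and 22 gained at 24 h, 15 and 17 in OCT4-FKBP at 2 h and 22 and 22 at 6 h, 1 and 2 gained in NANOG-FKBP at 6 and 24 h, 11, 26 and 25 for the 3 differences, 4, 28 and 3 for 24 h against 6 h in SOX2-FKBP, OCT4-FKBP and NANOG-FKBP, and 10 and 19 at 0.5 and 1 h. It ended no call of a named peak. With GC offsets added to the block these were 8 and 14 in SOX2-FKBP at 2 h, 11 and 18 at 6 h, 19, 26 and 41 lost in OCT4-FKBP at 2, 6 and 24 h with 18 gained at 6 h, 1 and 2 gained in NANOG-FKBP, 14, 25 and 23 for the differences, and 5 and 25 for 24 h against 6 h. A separate fit per line gave 13 gained and 15 lost in SOX2-FKBP at 2 h, 11 and 21 at 6 h and 32 lost at 24 h, 12 gained in OCT4-FKBP and 2 lost in NANOG-FKBP at 24 h, and 4 and 4 for 24 h against 6 h. The cause of these moves was not tested. Leaving out 1 library at a time, SOX2-FKBP ranged over 0 to 3 gained and 0 to 4 lost at 2 h, 1 to 4 and 5 to 8 at 6 h and 7 to 11 and 11 to 15 at 24 h. OCT4-FKBP ranged over 2 to 5 and 3 to 8 at 2 h, 7 to 10 and 6 to 11 at 6 h and 10 to 16 and 13 to 23 at 24 h, and NANOG-FKBP over 0 to 3 lost at 24 h. The differences ranged over 1 to 3, 9 to 16 and 9 to 14, the OCT4-FKBP 24 h against 6 h count over 0 to 9 with 0 in SOX2-FKBP, and the 0.5 and 1 h counts over 0 to 2 and 1 to 18. Of 224 such checks of called named peaks, 162 kept the call and 62 lost it. At 1817191 to 17575631 counts per library, small peaks such as Tfap2a +23577 had few counts in single libraries.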
